A study of Homo sapiens with 12 samples.

Results

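The 78 protein-coding genes for mitochondrial ribosomal proteins were examined for H3K4me3, the trimethyl mark on histone H3 that is found at active promoters. They were all genes whose symbols start with MRPL or MRPS followed by digits and hold no hyphen, out of 20136 protein-coding gene symbols in GENCODE release 44 lifted to GRCh37 (hg19). The marks were mapped by CUT&RUN, in which an antibody tethers a nuclease that releases the DNA around the mark for sequencing, in BON1, a human pancreatic neuroendocrine tumor cell line, with 500000 cells per condition. Control cells, labelled BON1/TGL/pQ, were compared with a line that overexpresses Bcl-xL, an anti-apoptotic protein, with an HA tag. Both were grown with puromycin. The labels gave 3 replicates of each line with an H3K4me3 antibody and 3 with a rabbit anti-mouse IgG as background. They do not say whether replicates were separate cultures, so their spread may be technical.

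Mitochondria translate the few proteins encoded in their own DNA on ribosomes of their own. These have a large and a small subunit, and all of their proteins are encoded in the nucleus, made in the cytosol and imported. Some have a counterpart in the bacterial ribosome and others occur only in mitochondria. Of the 78 genes, 51 encode large subunit proteins, including MRPS18A and MRPS30 despite their names, and 26 encode small subunit proteins. MRPS36, now known as a component of the 2-oxoglutarate dehydrogenase complex, was assigned to neither.

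Of the 11 peak lists read, 3 were H3K4me3 in control cells (replicates 1, 2 and 3), 2 were H3K4me3 with HA-Bcl-xL (replicates 2 and 3) and 6 were IgG. Replicate 1 of HA-Bcl-xL with the H3K4me3 antibody was not analysed here. Values of a line are listed below in the order of its replicates. The H3K4me3 lists held 10247 to 17711 peaks, with the fewest in control replicate 3, and the IgG lists 244 to 2113. Depth was read from each list's own statistics: the lowest background was 0.0478 fragments per base in control replicate 3 and 0.0659 to 0.0705 in the other H3K4me3 libraries. The median H3K4me3 peak had 9 to 12 fragments at its summit, the highest point of the peak. The neuroendocrine label was checked against 10 marker genes: CHGB and SCG2, which encode secretory granule proteins, had a peak within 1 kb in all 5 H3K4me3 libraries. CHGA had one in 1 library, SYP in 2 and PCSK1 in 3, TPH1 in 2 (both with HA-Bcl-xL), and INSM1 in none within 1 kb but in all 5 within 2.5 kb. ENO2, SCG5 and NCAM1 had none within 1 kb. The 2 of 10 markers called in all 5 libraries (20%) are close to the share of all protein-coding genes (21.3%), so these calls do not set the markers apart. PTPRC, CD3E and COL1A1, markers of blood cells and fibroblasts, had none within 1 kb in any library. The same held for 51.8% of all protein-coding genes, and within 2.5 kb COL1A1 had a peak in 1 library, with HA-Bcl-xL.

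Most mitochondrial ribosomal protein promoters carried the mark. The promoter was taken as the bases up to 1 kb either side of a gene's most 5′ end, and a peak touching it was found for 67, 62 and 57 of the 78 genes in control cells. With HA-Bcl-xL the numbers were 65 and 70. As shares of the family these were 85.9, 79.5 and 73.1% in control against 83.3 and 89.7% in HA-Bcl-xL cells. Over all protein-coding genes the shares were 40.4, 32.4 and 28.2% and 38.1 and 36.5% in the same libraries. In every H3K4me3 library the share of the family was thus above that of all genes, and the lowest was in control replicate 3, the library with the fewest peaks. No IgG library had a peak within 1 kb of any of the 78 genes, where the shares of all genes were 0.253, 0.223 and 0.243% for control IgG and 0.0199, 0.0397 and 0.00497% for HA-Bcl-xL IgG. A peak in at least 1 IgG library was found for 0.785% of all genes, and for 0.824% with canonical starts. Within 2.5 kb it was 1.47% of all genes and 1 member, MRPL43, in 1 control library. That wider window held an H3K4me3 peak for 69, 65 and 58 members in control cells (45.8, 37.8 and 33.1% of all genes), and for 68 and 72 with HA-Bcl-xL (43.4 and 41.8%). Since many cells were pooled in a library, fewer marked cells and less mark per cell cannot be told apart.

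**Figure D1:**
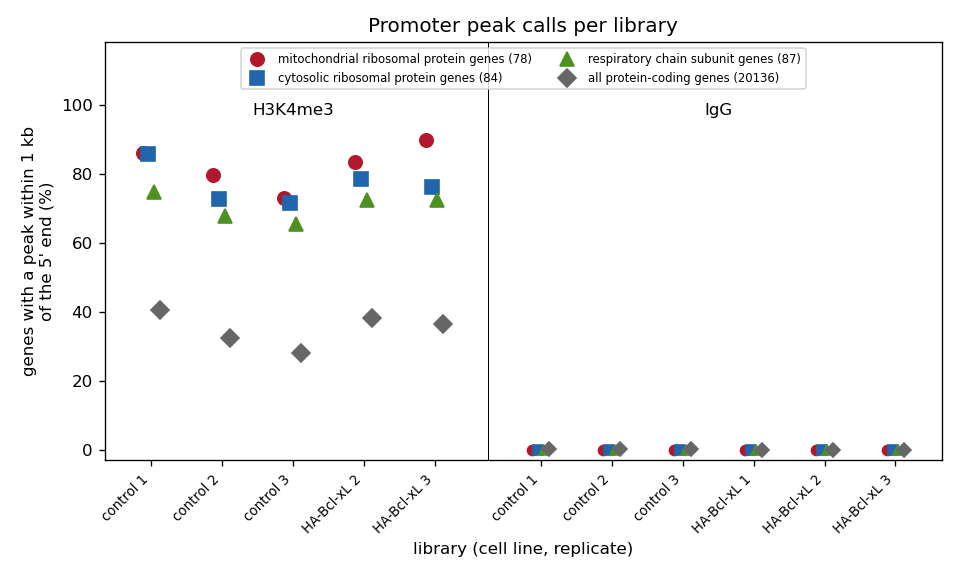
Share of genes (%, y axis) with a promoter peak (1 kb window) in each H3K4me3 and IgG library (x axis), for 4 gene groups; each point is 1 library. The mitochondrial ribosomal protein genes lie between 73.1 and 89.7% in the H3K4me3 libraries, above all protein-coding genes (28.2 to 40.4%), and at 0% in the IgG libraries.

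A peak in all 5 H3K4me3 libraries was found for 51 members, 65.4% of the family, against 21.3% of all protein-coding genes. Another 13 members had one in 4 libraries, 4 in 3, 2 in 1, and 8 in none (10.3%, against 51.8% of all genes). Of the 13 members called in 4 libraries, 9 lacked the peak in control replicate 3 and 4 in control replicate 2. Over all genes called in 4 libraries, 54.2% lacked the peak in control replicate 3 and 24.1% in control replicate 2. The gaps of the family thus fell in the libraries in which other genes also lost most calls.

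The share was similar for both subunits. Of the large subunit genes, 34 of 51 (66.7%) had a peak in every library, and of the small subunit genes 16 of 26 (61.5%). By ancestry, 31 of 45 genes with a bacterial counterpart (68.9%) and 19 of 32 mitochondria-specific genes (59.4%) were called in all 5. These differences were not tested. Cytosolic ribosomal protein genes had such peaks at 48 of 84 promoters (57.1%) and nuclear genes for respiratory chain subunits at 50 of 87 (57.5%). When the start of the Ensembl canonical transcript replaced the most 5′ end, 71, 66 and 60 members were called in control cells (43.8, 35.1 and 30.3% of all genes). With HA-Bcl-xL 69 and 74 were called (41.3 and 39.6%). The shares called in all 5 libraries were then 67.9% for the mitochondrial ribosomal genes, 65.5% for the cytosolic ones and 63.2% for the respiratory chain.

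Genes that work with the mitoribosome were also marked. All 5 mitoribosome proteins that go by other names (DAP3, PTCD3, AURKAIP1, CHCHD1 and GADD45GIP1) were called in all 5 libraries. So were 6 of 10 mitochondrial translation factors, 13 of 22 mitoribosome assembly factors and 7 of 12 genes for the copying and transcription of mitochondrial DNA. These last 3 shares were 60, 59.1 and 58.3%, against 21.3% of all protein-coding genes and 65.4% of the family. TUFM, which encodes the elongation factor that brings tRNAs to the mitoribosome, had 25, 19 and 15 fragments at the summit of its strongest peak in control cells against 21 and 21 with HA-Bcl-xL. GFM1, the elongation factor that moves the mitoribosome along, had 20, 24 and 11 in control against 19 and 26 with HA-Bcl-xL. TFAM, which packages mitochondrial DNA, had 15, 10 and 14 in control against 17 and 17 with HA-Bcl-xL. The lines overlapped for TUFM and GFM1, and for TFAM both HA-Bcl-xL values lay above the 3 control values. POLRMT, the mitochondrial RNA polymerase, had a weak peak of 9, 9 and 8 fragments in the control libraries and none with HA-Bcl-xL, also within 2.5 kb. A peak in all control and no HA-Bcl-xL library occurred for 0.248% of all genes, and the reverse for 0.844%.

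Strength varied widely among the members. Over the 321 promoter calls of the family, the strongest peak held 4 to 58 fragments at its summit. These fragment numbers were solved from the authors' deposited fold and p of each peak. Ranked by -log10 p within its own list, the strongest peak of a member had a median percentile of 83.9, 82.0 and 75.2 in control cells against 77.8 and 73.7 with HA-Bcl-xL. The strongest promoter peaks of all called genes had medians of 68.4, 65.2 and 64.2 and of 68.0 and 67.5. Cytosolic ribosomal protein genes had 81.8, 74.7 and 68.4 and 78.1 and 78.1, and respiratory chain genes 81.2, 72.7 and 76 and 80.8 and 78.4, both above the members with HA-Bcl-xL.

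**Figure D2:**
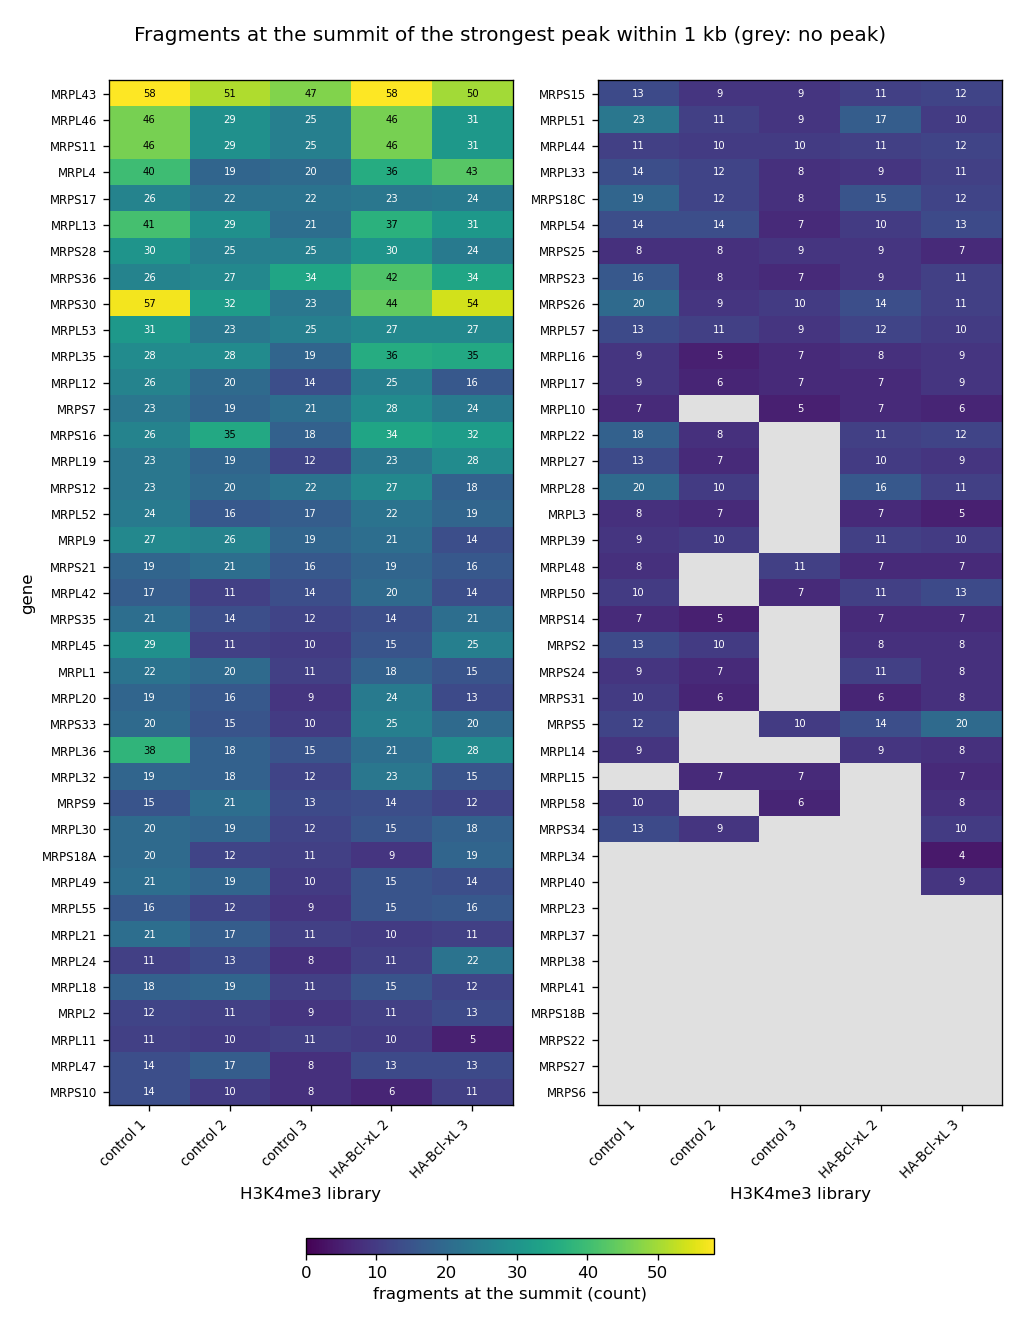
Fragments at the summit of the strongest peak within 1 kb of the 5′ end (colour and number, a count) for each of the 78 genes (rows, ordered by the number of libraries with a peak and then by mean percentile rank) in the 5 H3K4me3 libraries (columns); grey marks no peak. MRPL43 leads with 47 to 58 fragments, and the last 8 rows have no peak in any library.

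The 6 highest-ranked members were MRPL43, MRPL46, MRPS11, MRPL4, MRPS17 and, level with MRPS28 and MRPS36 at a mean percentile of 98.3, MRPL13. MRPL43, a mitochondria-specific protein of the large subunit, had 58, 51 and 47 fragments in control cells against 58 and 50 with HA-Bcl-xL, with a mean percentile of 99.8. Its summits lay 22 bp before to 5 bp after the 5′ end, which is 148 bp from the 5′ end of TWNK, the gene for the mitochondrial DNA helicase, on the other strand. MRPS11 and MRPL46, a small and a large subunit gene, start 63 bp apart on opposite strands of chromosome 15 and shared the same peak in every library. It had 46, 29 and 25 fragments in control against 46 and 31 with HA-Bcl-xL, and spanned 89010581 to 89010957 in control replicate 1. MRPL4, a protein of the peptide exit tunnel, had 40, 19 and 20 fragments in control against 36 and 43 with HA-Bcl-xL. MRPS17, a small subunit protein with a bacterial counterpart, had 26, 22 and 22 in control against 23 and 24 with HA-Bcl-xL. The control and HA-Bcl-xL values overlapped for each of these genes. MRPL13 had 41, 29 and 21 fragments in control against 37 and 31 with HA-Bcl-xL, and starts 2 bp from MTBP on the other strand.

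Among members called in every library, MRPL17 ranked lowest, with 9, 6 and 7 fragments in control against 7 and 9 with HA-Bcl-xL and a mean percentile of 23.6. Its strongest peak moved from 22 bp before to 890 bp after the 5′ end between libraries. MRPL16 had 9, 5 and 7 fragments in control against 8 and 9 with HA-Bcl-xL. The next lowest were MRPL57 (mean percentile 50.5) and MRPS26 (52.1). At these promoters the calls rested on few fragments, 5 to 20 per peak.

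The sequences of 3 of these strong promoters and of 1 promoter without a peak are shown to set the promoter letters beside the calls. They run from 250 bases before to 50 after the most 5′ end, on the gene's strand, in GRCh37. Capitals mark matches to 4 short motifs on either strand: the core of the NRF1 site, CCGGAAG (core of the ETS site), AAGATGGC (core of the YY1 site) and CCAAT. The windows of MRPS11 and MRPL46 overlap in part, and that of MRPS11 is shown. MRPL43 (chr10:102747223-102747522, minus strand), MRPS11 (chr15:89010434-89010733, plus strand) and MRPS17 (chr7:56019320-56019619, plus strand) were called in all 5 libraries. MRPS18B (chr6:30585367-30585666, plus strand) was called in none.
MRPL43: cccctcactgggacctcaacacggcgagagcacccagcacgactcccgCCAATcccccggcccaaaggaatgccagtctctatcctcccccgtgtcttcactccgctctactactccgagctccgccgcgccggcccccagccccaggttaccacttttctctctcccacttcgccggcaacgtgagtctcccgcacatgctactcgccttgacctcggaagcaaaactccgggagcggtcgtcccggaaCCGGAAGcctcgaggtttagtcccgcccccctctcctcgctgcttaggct
MRPS11: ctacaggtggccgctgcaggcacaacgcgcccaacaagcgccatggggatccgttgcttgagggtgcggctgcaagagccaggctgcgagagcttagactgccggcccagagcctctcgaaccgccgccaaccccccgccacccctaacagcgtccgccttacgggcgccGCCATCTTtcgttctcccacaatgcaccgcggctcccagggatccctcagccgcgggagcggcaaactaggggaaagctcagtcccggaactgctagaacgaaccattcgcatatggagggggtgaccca
MRPS17: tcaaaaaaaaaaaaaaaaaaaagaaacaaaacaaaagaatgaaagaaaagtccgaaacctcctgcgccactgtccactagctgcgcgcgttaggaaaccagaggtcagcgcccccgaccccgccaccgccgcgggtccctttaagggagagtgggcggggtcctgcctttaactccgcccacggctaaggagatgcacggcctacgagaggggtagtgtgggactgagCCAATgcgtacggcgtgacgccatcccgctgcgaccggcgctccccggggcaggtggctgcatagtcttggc
MRPS18B: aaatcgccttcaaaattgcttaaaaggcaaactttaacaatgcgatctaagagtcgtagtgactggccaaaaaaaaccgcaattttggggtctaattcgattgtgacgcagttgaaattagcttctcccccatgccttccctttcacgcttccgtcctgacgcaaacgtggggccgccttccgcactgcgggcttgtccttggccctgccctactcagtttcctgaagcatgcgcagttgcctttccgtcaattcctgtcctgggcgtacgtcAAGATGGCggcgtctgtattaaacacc

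A single motif did not separate these promoters. MRPL43 held 1 ETS core and 1 CCAAT match, MRPS11 1 YY1 core and MRPS17 1 CCAAT match. MRPS18B, which had no peak, also held 1 YY1 core. The GC content of the windows was 64.7% for MRPL43, 65.3% for MRPS11, 58.7% for MRPS17 and 50.7% for MRPS18B.

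Over the whole family, the ETS and YY1 cores had the largest ratios to all promoters among the 7 motifs searched. The ETS core, bound by factors such as GABPA, occurred in 26 of 78 windows (33.3%), against 11.8% of all 20136 windows of the same length, 24% of those called in all 5 libraries, 26.2% of cytosolic ribosomal and 20.7% of respiratory chain promoters. The YY1 core occurred in 15 windows (19.2%), against 3.02, 6.74, 5.95 and 8.05% of the same sets. Either of them occurred in 35 windows (44.9%, against 14.2% of all), and both in 6. Counted over its 16 matches, the YY1 core was centred a median of 12 bp after the 5′ end, with 12 matches reading AAGATGGC on the gene's strand. Of the 16, 9 lay within 50 bp, and the matches of MRPS11 and MRPL46 are the same site. The 34 ETS matches were centred a median of 13.5 bp before the 5′ end, and 28 of them lay within 50 bp. The NRF1 core, whose factor is known for control of respiratory genes, occurred in 7 windows (8.97%), against 6.92% of all, 24.1% of respiratory chain genes and 12.8% of promoters called in all 5 libraries. CCAAT occurred in 29.5% (35.8% of all), the GC box GGGCGG in 57.7% (52.2%), the E-box CACGTG in 8.97% (8.33%) and TATAAA in 5.13% (10.9%). In a wider window, 500 bases either side, the NRF1 core occurred in 15.4% of members (10.1% of all genes), the YY1 core in 29.5% (7.02%), CCAAT in 61.5% (65.7%), CACGTG in 17.9% (18.2%) and TATAAA in 24.4% (27%). The ETS core occurred there in 42.3% of members (20.7% of all genes). It occurred in 37.7% of promoters called in all 5 libraries, 35.7% of cytosolic ribosomal and 31% of respiratory chain promoters. For the YY1 core these shares were 12.7, 15.5 and 19.5%. At canonical starts the ETS core occurred in 41% of members, 34.5% of cytosolic ribosomal and 27.6% of respiratory chain promoters. The YY1 core had 28.2, 13.1 and 18.4%. These are letter matches and were not tested. YY1 cores were held by 12 of the 51 members called in every library and 3 of the other 27, ETS cores by 16 and 10.

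Many of these genes shared a promoter region with a gene on the other strand. A protein-coding 5′ end on the opposite strand lay within 1 kb for 27 of 78 members (34.6%), against 13.3% of all genes, 17.9% of cytosolic ribosomal protein genes and 35.6% of respiratory chain genes. The partner started upstream of the member for 17 of the 27, a head-to-head arrangement, and inside the member, so that the genes overlap, for 10. Of the 27, 20 had a peak in all 5 libraries (74.1%), as did 31 of the 51 without such a partner (60.8%). Over all genes these shares were 50.6% and 16.8%, so the family exceeded all genes in both classes. Partners were called in the same number of libraries as their member in every pair, and their windows overlap. Partners with related work were TWNK for MRPL43, the complex I subunit genes NDUFB5 for MRPL47 (41 bp) and NDUFS6 for MRPL36 (41 bp), and MRPL46 for MRPS11. Singled out after the values were seen, MRPS12 starts 181 bp from SARS2, which encodes the mitochondrial seryl-tRNA synthetase, and MRPL49 starts 6 bp from FAU, which encodes a cytosolic ribosomal protein. MRPS12, a protein of the decoding centre, had 23, 20 and 22 fragments in control against 27 and 18 with HA-Bcl-xL.

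The strongest peaks of the family often sat close to the start, as did those of respiratory chain genes. The summit lay within 100 bp of the 5′ end for 52.2, 54.8 and 49.1% of called members in control cells, against 49.2 and 45.7% with HA-Bcl-xL. Over all called genes these shares were 30.6, 31.1 and 32.4% and 29.8 and 30.9%. Respiratory chain genes had 45.6 to 50.8% and cytosolic ribosomal protein genes 36.4 to 46.9%. The median summit of the members was at -4, 1.5 and 8 bp in control against 4 and 12 bp with HA-Bcl-xL, a mean of 4.3 ± 6.12 bp over the libraries (SD, n = 5). The median of all called genes averaged 42.7 ± 6.76 bp (SD, n = 5), and respiratory chain genes had medians of 22 to 58 bp. Members with an opposite-strand partner had median summits of -32.5 to -10 bp, and members without one 16 to 90 bp, into the gene. Over all genes the medians split in the same direction, at -22.5 to -17 bp with a partner and 106 to 151 bp without one. Of the 321 strongest peaks, 193 had their summit upstream of the canonical start, 37 in exon 1, 72 in intron 1 and 19 farther into the gene. MRPS30 was the member with the strongest peaks far from its start, with 57, 32 and 23 fragments in control against 44 and 54 with HA-Bcl-xL at summits 963 to 993 bp into the gene, and was singled out after its values were seen.

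**Figure D3:**
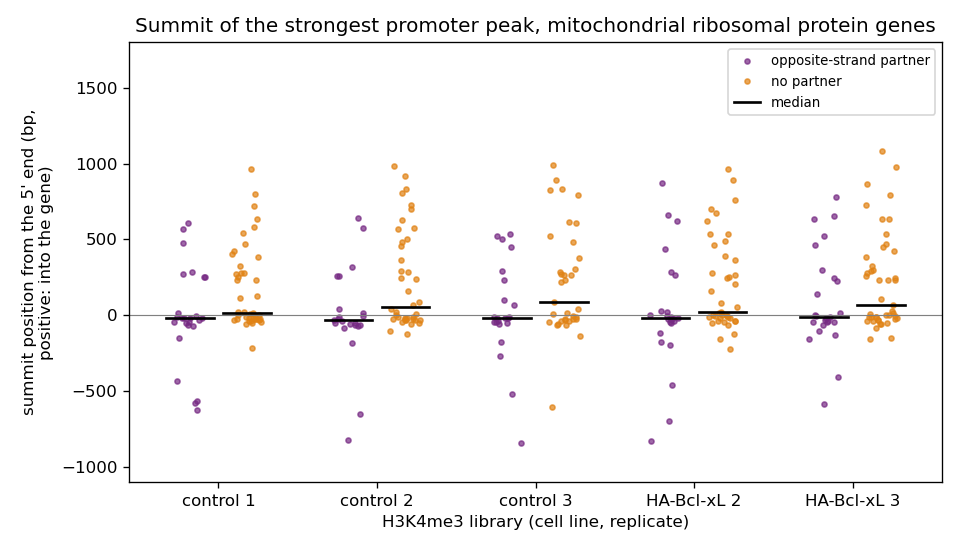
Position of the summit of the strongest peak relative to the 5′ end (bp, y axis; positive values lie in the gene) in each H3K4me3 library (x axis); each point is 1 gene, and black bars are medians. Genes with an opposite-strand partner within 1 kb have medians of -32.5 to -10 bp and genes without one 16 to 90 bp; over all protein-coding genes, not drawn, these were -22.5 to -17 and 106 to 151 bp.

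The 8 members without a peak within 1 kb were MRPL23, MRPL37, MRPL38, MRPL41, MRPS6, MRPS18B, MRPS22 and MRPS27. For 3 of them the most 5′ end lies over 1 kb from the start of the canonical transcript. MRPS22, on chromosome 3, has its most 5′ end at 138724648, next to PRR23A, and its canonical start 338214 bp away at 139062862. At the canonical start all 5 libraries had a peak, with 14, 15 and 8 fragments in control against 15 and 13 with HA-Bcl-xL. MRPL37, whose starts on chromosome 1 are 16126 bp apart, had 15, 13 and 13 fragments in control against 19 and 11 with HA-Bcl-xL at the canonical start, 54665840. MRPS27 had a canonical peak in 4 of 5 libraries, missing in control replicate 3. Other genes also start near some of these peaks, CYB5RL at the canonical start of MRPL37 and PTCD2 at that of MRPS27, so those peaks cannot be given to the member alone. MRPL34 was called in HA-Bcl-xL replicate 3 alone at its most 5′ end, with 4 fragments, and in all 5 libraries at its canonical start 13263 bp away. MRPL11 had peaks at both of its starts, which are 27890 bp apart, and PELI3 starts at the upstream one. MRPL36 was called in all 5 libraries at the end it shares with NDUFS6 and in 2 within 1 kb of its canonical start. With canonical starts, 74 of 78 members had a peak in at least 1 library and 53 in all 5. Over all genes the shares were 52% and 22.9%.

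MRPS6, whose starts are 354 bp apart, had its nearest peak 1052 bp from the most 5′ end and was called in 4 libraries at the canonical start. The remaining 4 genes, MRPL23, MRPL38, MRPL41 and MRPS18B, had no peak within 1 kb of any annotated transcript start. The nearest peak was 42258 bp or more from MRPL23 and 26998 bp or more from MRPL38 in every library. MRPL41 had a peak 1383 bp away in 1 library. Promoter GC was 82.3% for MRPL23, 80.7% for MRPL41 and 69% for MRPL38, against a family median of 60.2%. MRPS18B had an ordinary GC content of 50.7% and lies in the major histocompatibility region of chromosome 6, at 30585617. Most of its neighbours were not called either. Counting MRPS18B itself, 32 protein-coding genes start within 0.5 Mb of its 5′ end. Of these 32, 2, 3 and 1 had a peak in control cells against 3 and 2 with HA-Bcl-xL. These are 3.12 to 9.38%, against 28.2 to 40.4% of all genes. TUBB, FLOT1 and ABCF1, singled out afterwards as broadly expressed neighbours, had none. C6orf136 and TRIM39 were called in 4 of the 5 libraries, and PRR3, GNL1 and HLA-E in 1. The hg19 lists also held peaks on all 7 alternative haplotype contigs of chromosome 6, 75 to 135 per H3K4me3 library. Their part in the missing calls was not tested.

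Calls varied with promoter GC content. In decile 1, the lowest, 0 of 1 member had a peak in all 5 libraries (4.57% of all genes), and in decile 2, 2 of 5 (9.78%). In the deciles 3 to 6 of promoter GC, 7 of 9, 9 of 10, 13 of 15 and 6 of 8 members had a peak in all 5 libraries, against 19.6, 28.8, 29.9 and 32.2% of all genes. In deciles 7 and 8, 5 of 9 and 4 of 8 members had one, while the shares of all genes were 29.5 and 28.8%. In decile 9, 3 of 8 members had one (19.7% of all genes), and in decile 10, 2 of 5 (10.2%). Members called in all libraries had a median GC of 58.7%, those called in 1 to 4 libraries 66.0%, and those called in none 66.8%. All genes called in every library had a median of 61.7%, above that of all genes, whereas the called members lay below the family's. Member and overall promoters had the same median GC (60.2 and 60.3%), but the ratio of observed to expected CpG was 0.866 in the family and 0.694 overall. It was 0.88 for cytosolic ribosomal, 0.789 for respiratory chain and 0.83 for all promoters called in every library.

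**Figure D4:**
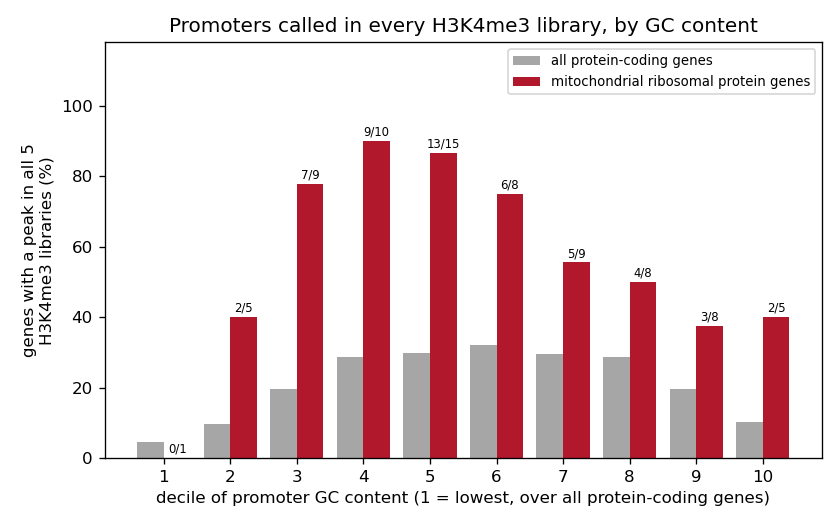
Share of genes with a peak within 1 kb in all 5 H3K4me3 libraries (%, y axis) by decile of promoter GC content (x axis), for all protein-coding genes (grey) and the mitochondrial ribosomal protein genes (red; numbers give called over all members). Members are above all genes in deciles 2 to 10, and decile 1 holds 1 member, which was not called.

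The comparison of the lines asked whether overexpression of Bcl-xL altered H3K4me3. At the level of calls, control libraries had 62 ± 5 marked members (SD, n = 3) and HA-Bcl-xL libraries 67.5 ± 3.54 (SD, n = 2). Over all genes 40.4, 32.4 and 28.2% were called in control and 38.1 and 36.5% with HA-Bcl-xL, means of 6770 and 7510 genes. For the members the lines overlapped, since 65 with HA-Bcl-xL replicate 2 was below 67 in control replicate 1. With equal numbers of peaks taken from each list the libraries had 63, 59 and 57 members in control against 62 and 64 with HA-Bcl-xL. In these shortened lists 45 members were called in all 5 libraries, against 17.9% of all genes. No member had a peak in all libraries of one line and none of the other, within 1 or 2.5 kb or at canonical starts. Over all genes the share with HA-Bcl-xL calls only was 0.844% within 1 kb, 0.824% within 2.5 kb and 0.973% at canonical starts. With control calls only it was 0.248, 0.248 and 0.233%. MRPL40 and MRPL34 were called in HA-Bcl-xL replicate 3 alone, with 9 and 4 fragments. Within 2.5 kb MRPL40 had a peak in 3 libraries, 2 of them control, and MRPL34 was called in both lines at its canonical start.

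The bases under peaks within 1 kb were compared at the 4290 promoters called in all 5 libraries, 51 of them members, with limma on the log2 scale. None of the 4290 had a Benjamini-Hochberg adjusted p under 0.05 (0%), and 211 (4.92%) had an unadjusted p under 0.05. Of the 51 members, 3 did. The median log2 change of the members was -0.0261, and that of all promoters tested was also -0.0261. By direction, 23 members had a positive and 28 a negative value, and 47.9% of all promoters a positive one. Without subtracting each library's median, 31 were positive and 20 negative, with 60.4% of all promoters positive. Before centring, members had a median of 310, 299 and 207 bases under peaks in control cells against 307 and 294 with HA-Bcl-xL, and all promoters tested 297, 209 and 169.5 and 248 and 231.

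The member with the smallest p was MRPS10, a small subunit protein with a bacterial counterpart. It had 420, 215 and 290 bases under peaks in control cells against 87 and 142 with HA-Bcl-xL. Every HA-Bcl-xL value lay below every control value, at a log2 change of -1.55 (SE 0.428, limma adjusted p = 0.822). MRPS23, a mitochondria-specific small subunit protein, had 308, 125 and 308 bases in control against 74 and 90 with HA-Bcl-xL, a log2 change of -1.61 (SE 0.475, limma adjusted p = 0.822). MRPS18C had 545, 348 and 206 in control against 156 and 151 with HA-Bcl-xL, a log2 change of -1.27 (SE 0.401, limma adjusted p = 0.847). The lines did not overlap at these 3 genes, and the differences did not pass the adjusted threshold. Every HA-Bcl-xL value lay below every control value at 6 of the 51 members (the others were MRPS7, MRPS25 and MRPS30) and at 5.62% of the 4290 promoters. In the other direction, MRPL1 had 360, 451 and 111 bases in control against 555 and 488 with HA-Bcl-xL (log2 change 0.86, SE 0.482, limma adjusted p = 0.986). MRPL32 had 289, 364 and 159 against 389 and 509, and for both genes the HA-Bcl-xL values lay above the control values. That held for 5 of the 51 members (with MRPL42, MRPS17 and MRPS33) and for 10.6% of the 4290 promoters. MRPL24 had 443, 207 and 104 against 404 and 338, and its lines overlapped. The broadest members were MRPL30, MRPS12 and MRPS33, with means of 533, 491 and 490 bases over the 5 libraries. MRPL30 had 700, 442 and 427 in control against 583 and 512 with HA-Bcl-xL, a log2 change of -0.03.

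**Figure D5:**
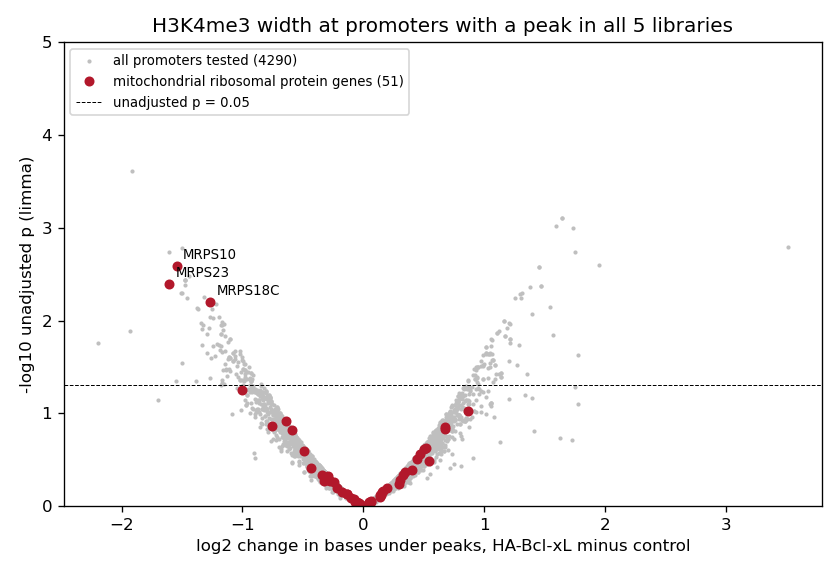
Log2 change in bases under H3K4me3 peaks, HA-Bcl-xL minus control (x axis), against -log10 of the unadjusted limma p (y axis) for the 4290 promoters with a peak in all 5 libraries (grey) and the 51 members among them (red). MRPS10, MRPS23 and MRPS18C lie above the dashed line, which marks an unadjusted limma p of 0.05, and no promoter passed after adjustment.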

How the data were processed

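The 11 CUT&RUN libraries used, of 12 in the labels, were each read from 1 deposited peak list on hg19. The submitters' processing notes name bcl2fastq 2.20, Trimmomatic 0.36, Bowtie2 2.2.9, MACS2 2.1.1 and deepTools 3.5.1, without roles; options, duplicate treatment and use of a control are not given in the sources used here. The authors' deposited values per peak were a score, a fold enrichment (a ratio), and -log10 p and -log10 q, with a lowest -log10 q of 2.00 over the lists. These were used within their own list. Summit offsets came from the same lists.

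Lists were restricted to chromosomes 1 to 22, X and Y, with an overlap of at least 1 bp with the promoter window and 1-based coordinates. Fragments at the summit, n, were solved from fold = (n + 1) / (background + 1) and a Poisson p, matching the deposited -log10 p to 0.001 for 95.9% or more of every list, and the solver was tested on simulated data. The lists do not record if n stands for fragments or reads, PCR copies are not independent molecules, and a missing peak is not an absent mark at this depth. Widths were fitted with limma 3.58.1 (R 4.3.3) on all promoters called in every library, after subtracting each library's median, and adjusted by Benjamini-Hochberg; this step was also tested on simulated data. Scripts ran in Python 3.11.15 with pandas 2.3.3, scipy 1.17.1, numpy 2.4.6, matplotlib 3.10.9 and pysam 0.24.0.

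The members, lists, motifs and the rule for naming genes were chosen with earlier results of these data known. The rule named members called in no library or in 1 line only, the 6 highest and 4 lowest by mean percentile rank, the 3 with the smallest p for width in each direction, the 3 broadest, members sharing a start region with a listed gene, and TUFM, GFM1, POLRMT and TFAM. The settings varied were the window (2.5 kb), a stricter -log10 q (5 or more), lists shortened to 10247 peaks each, canonical or any transcript starts, summits only, removal of peaks overlapping IgG, other normalizations of width, full peak widths, a replicate block, other motif windows, and leaving out each library. PECAM1, a listed marker, was not in the annotation used.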

Additional observations from a re-analysis of the deposited data

Results flagged for a closer look

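Peaks on contigs outside the main comparison were looked at because MRPS18B had no call. On the chromosome 6 alternative haplotype contigs the H3K4me3 lists held 135, 75 and 77 peaks in control cells (replicates 1, 2 and 3) against 127 and 89 with HA-Bcl-xL (replicates 2 and 3), while no IgG list held more than 1. The contigs' genes were not annotated here, so no peak on them was given to MRPS18B.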

How the results depend on the processing

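Under other settings 98 values were computed again: 82 were kept (counts and shares within 1.5 times, means and the summit within 1 SD between libraries, the median log2 change within the members' median SE), 14 moved and 2 reversed. Of 61 recomputed with 1 library left out, 56 were kept and 5 moved.

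The mean number of HA-Bcl-xL members called, 67.5, went to 63 with a -log10 q of at least 5 and with equal list lengths, to 71.5 with canonical starts and to 72 with any transcript start. Members without a call, 8, went to 5 within 2.5 kb and to 4 with canonical or any transcript starts. Members with an IgG peak went from 0 to 1 within 2.5 kb. The median summit, 4.3 ± 6.12 bp (SD, n = 5), reversed in sign to -14.9 bp with canonical starts and to -1.3 bp with a -log10 q of at least 5. Canonical starts lie at or downstream of the most 5′ end, so the same summit gets an equal or lower position from them. The move to -1.3 bp was within 1 SD, and its cause was not tested.

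With 1 library left out, the difference in members called (HA-Bcl-xL minus control) ranged from 3 to 8, the control mean from 59.5 to 64.5 and the HA-Bcl-xL mean from 65 to 70. Members called in all libraries ranged from 51 to 60, members without a call from 8 to 10, and the median summit from 2.38 to 6.38 bp. Members called in HA-Bcl-xL only ranged from 0 to 2: 1 (MRPL14) without control replicate 1 and 2 (MRPL34 and MRPL40) without HA-Bcl-xL replicate 2. The counts for control only and for IgG stayed at 0.

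For width, the replicate block gave 13 promoters under an adjusted p of 0.05 and no member; with it the members' median log2 change was -0.186 (all promoters -0.0734). Same-numbered libraries of the lines had correlations of 0.0256 and 0.0481 in their deviations from the mean of their line. The deviations of the 2 HA-Bcl-xL libraries mirror each other, so these values cannot decide whether the numbers pair libraries. The main fit used the line alone. Leaving out a library gave 0 to 9 promoters (1 without control replicate 2, 3 without HA-Bcl-xL replicate 2 and 9 without HA-Bcl-xL replicate 3, where the lone library is assumed to vary like the others), 0 members throughout, and a members' median log2 change of -0.185 to 0.0892 (all promoters in the same fits -0.0729 and 0.0169). Without centring, all promoters had a median change of 0.10 and members of 0.10.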
